A study of Mus musculus with 15 samples.

Results

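The promoters described are those of the mouse genes for the NF-κB subunits (Nfkb1, Nfkb2, Rel, Rela, Relb) and for the IκB proteins that bind them (Nfkbia, Nfkbib, Nfkbie, Nfkbiz, Bcl3). They were found by translating the RefSeq transcript of every annotated transcription start site (TSS) into a gene symbol, and all starts of these 10 genes were kept, whatever their occupancy. This gave 13 of 25881 promoters in all, with 3 starts for Nfkb2, 2 for Nfkbiz and 1 for each other gene. Promoter-proximal DNA of these genes was depleted of nucleosomes to very different extents. In libraries of single fibroblast replicates, Nfkbib, Nfkbie and the upstream Nfkb2 start lay at the depleted end. Dendritic cells (DCs) were not part of this order. The κB consensus was found in 8 of the 13 upstream sequences. In fibroblasts, none of the 8 high-coverage promoters among them passed an adjusted test for a change with TNF-α or BAF knockdown, and LPS in DCs could be described only without a test.

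NF-κB is a family of dimeric transcription factors that carry inflammatory signals to genes. In resting cells the dimers are held in the cytoplasm by IκB proteins, and signals from receptors for LPS or TNF-α activate the IKK kinase, which marks IκBs for destruction and frees the dimers to enter the nucleus and bind κB sites. Several members of the system are themselves NF-κB target genes, Nfkbia above all, so that their promoters are both part of the pathway and an output of it. Nucleosomes are the units of DNA wrapped around histones, and active promoters usually carry a nucleosome-depleted region (NDR) just ahead of the TSS, followed by regularly placed nucleosomes of which the first is called +1.

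The assay was ChIP-MNase. An antibody pulls down long pieces of chromatin, and micrococcal nuclease (MNase) then trims the bound pieces to the DNA that nucleosomes protect. H3K4me1, a histone mark of promoters and enhancers, was the target in DCs and in 3T3 fibroblasts, an immortalised mouse line. DCs are antigen-presenting immune cells, obtained here by GM-CSF differentiation of bone-marrow progenitor lines in culture. The groups were non-stimulated DCs, DCs given LPS (100 ng/ml, 1 h), non-stimulated fibroblasts and fibroblasts given TNF-α (5 ng/ml, 1 h), each deposited as 1 set in which the authors had pooled 2 replicates. Another 8 H3K4me1 libraries are single replicates of 3T3 cells, labelled either as having no BAF knockdown (control) or as BAF knockdown, non-stimulated or given the same TNF-α, with 2 libraries in each of the 4 groups. BAF is a chromatin remodelling complex, and the knockdown cells carried a stable retroviral shRNA against its ATPases Brg1 and Brm, expressed from a U6 promoter, and were sorted for high GFP. From TNF-α-stimulated fibroblasts there are also 2 libraries for RNA polymerase II phosphorylated at serine 7 (pol-II S7P) and 1 for serine 5 (pol-II S5P). The label of the S5P library carries no replicate number although the study lists 2 replicates, so that it may be a pool of them, and it was treated as 1 library. The study lists the 2 libraries of a group as biological replicates, and the labels say nothing further of separate cultures, so p-values measure the spread between these libraries. There is no expression value for any single library, so the knockdown itself was not checked here.

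Values are occupancies relative to the surrounding 1 kb, in 200 bins of 10 bp around each TSS, and hold no read counts, so the depth behind a value is unknown. As a stand-in, the share of bins with signal at the median promoter was 80.5% to 87.0% for pooled sets, 64.5% to 77.5% for single libraries of H3K4me1 and 68.5% to 82.0% for those of pol-II. The authors' coverage score exceeded 100 at 13559 promoters, and these high-coverage promoters were the basis of all tests. Of the promoters studied 8 passed, from 6 genes, namely the 3 starts of Nfkb2, Rela, Nfkbib, Nfkbie, the upstream start of Nfkbiz and Bcl3. Nfkbia and Relb lay exactly at 100 and did not pass, and Nfkbiz downstream (61.5), Nfkb1 (57.5) and Rel (53.5) lay below. The expression values in the authors' annotation come from public RNA-seq of DCs and fibroblasts, not from the cells of these libraries. They therefore cannot check the labels of the libraries. In these values 8 of 8 DC marker genes were active in DCs and 1 of 8 in fibroblasts (summed FPKM 218 and 2.55). Of 8 fibroblast markers 3 were active in DCs, where Twist1 was at 0, and 8 in fibroblasts (summed 31.3 and 2673). Of 6 markers of other cells of such a culture 3 and 2 were active (summed 4.59 and 21.3), and the T cell gene Cd3e was at 0 in both cell types.

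The upstream sequences of these promoters are shown first because several of these genes are themselves NF-κB targets. In the 250 bp ahead of each TSS (genome build mm9), both strands were searched for the 10-base κB consensus. It was present at 8 of 13 promoters of 6 genes, compared with 7.75% of 25733 promoters with sequence and 8.67% of the high-coverage ones. There were 12 matches, among them 2 pairs that overlap with a shift of 1 base, so that they fall in 10 places. More than 1 match was found at 3 of the 13 promoters, against 1.13% of all promoters. No match lies in this window of Nfkb1, Rela, Nfkbib, Bcl3 or the downstream Nfkbiz start. The 4 whole windows below are those with several matches and that of Nfkbia, printed 5′ to 3′ on the strand of the gene from −250 to −1 bp, with κB matches in capitals. They lie at chr19:46378978-46379227 (plus strand) for Nfkb2 upstream, chr11:23670971-23671220 (minus) for Rel, chr7:20214788-20215037 (minus) for Relb and chr12:56593635-56593884 (minus) for Nfkbia, each ending 1 bp before the annotated TSS.
Nfkb2 upstream: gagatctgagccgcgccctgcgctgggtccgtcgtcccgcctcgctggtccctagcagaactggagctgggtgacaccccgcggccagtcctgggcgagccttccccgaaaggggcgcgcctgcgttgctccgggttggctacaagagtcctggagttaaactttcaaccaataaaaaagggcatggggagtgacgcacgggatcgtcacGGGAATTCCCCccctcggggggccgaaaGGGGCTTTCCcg
Rel: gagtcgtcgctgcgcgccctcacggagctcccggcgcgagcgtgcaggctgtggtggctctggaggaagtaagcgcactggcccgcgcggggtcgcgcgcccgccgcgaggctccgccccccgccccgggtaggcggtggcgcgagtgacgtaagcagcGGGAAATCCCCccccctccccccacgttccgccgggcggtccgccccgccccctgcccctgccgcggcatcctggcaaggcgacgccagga
Relb: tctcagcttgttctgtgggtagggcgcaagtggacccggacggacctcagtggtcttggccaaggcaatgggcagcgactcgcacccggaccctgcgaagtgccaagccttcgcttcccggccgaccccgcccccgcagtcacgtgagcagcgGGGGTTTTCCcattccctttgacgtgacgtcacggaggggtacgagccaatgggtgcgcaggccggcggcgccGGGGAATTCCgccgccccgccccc
Nfkbia: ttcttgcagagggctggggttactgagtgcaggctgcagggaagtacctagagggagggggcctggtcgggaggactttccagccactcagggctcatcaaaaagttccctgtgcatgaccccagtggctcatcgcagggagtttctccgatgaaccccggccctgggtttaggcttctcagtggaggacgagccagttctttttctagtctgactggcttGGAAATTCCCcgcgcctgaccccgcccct

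The matches start at −40, −39 and −12 bp of the upstream Nfkb2 start, at −91 and −90 bp of Rel, at −97 and −24 bp of Relb and at −29 bp of Nfkbia, so that all of these lie in the last 100 bp before the TSS. The other 4 matches lie farther out, at −123 bp of Nfkbie, −228 bp of the upstream Nfkbiz start, −237 bp of the middle Nfkb2 start and −226 bp of the downstream Nfkb2 start. They are shown with 10 bases on either side, at chr17:45692533-45692562 (plus strand), chr16:55838963-55838992 (minus), chr19:46379939-46379968 (plus) and chr19:46380185-46380214 (plus). The match of the downstream Nfkb2 start lies within the first exon of the middle transcript, and that of the middle start lies downstream of the upstream TSS. The other matches lie ahead of the first exon of their gene.
Nfkbie: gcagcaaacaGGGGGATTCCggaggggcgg
Nfkbiz upstream: tttttggcctGGGAATTTCCagcgtgtgga
Nfkb2 middle: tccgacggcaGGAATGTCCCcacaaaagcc
Nfkb2 downstream: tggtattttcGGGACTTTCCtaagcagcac

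The promoters also shared base composition. A CpG island, called within 200 bp of the TSS, was present at 12 of 13 (all but Nfkbia), compared with 48.2% of promoters with sequence. The GC box GGGCGG, the core of the Sp1 site, was present on either strand at 12 of 13 (all but Nfkb2 upstream, all promoters 42.2%), and the TATA box TATAAA at 1 of 13, the upstream Nfkbiz start (all promoters 11.8%). Median GC content was 68.8% against 58.3%. A match to any of these letters is a description of the sequence and not evidence that a factor is bound.

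Expression before stimulation was given by the authors in FPKM, from public RNA-seq and on scales that differ between the cell types. It placed 12 of 13 starts above the limit used for an active promoter in DCs (0.0507) and 11 of 13 in fibroblasts (1.6). Nfkbia, which encodes IκBα, the inhibitor that is degraded and resynthesised fastest, was the highest in both, with 49.7 for DCs and 19.7 for fibroblasts. The starts of Nfkb2 and Nfkbiz were used in opposite orders in the cell types. At Nfkb2 the upstream start was the highest of the 3 in DCs (3.59, against 0.766 and 0.254 for the middle and downstream starts) and the lowest in fibroblasts (0.840, against 6.65 and 12.6). The 2 starts of Nfkbiz lie 16503 bp apart. Its upstream start was all but silent in DCs (1.37e-06) and expressed in fibroblasts (9.79), and its downstream start had 3.31 and 0.174. These are 1 value for each start and cell type, with no replicate error, and transcripts of 1 gene share exons, so that the split between starts is an estimate.

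Depletion was measured as the mean occupancy from −150 to 0 bp in percent of that from −1000 to −500 bp (the NDR level), for which the median high-coverage promoter had 59.0% to 64.7% (pooled sets), 59.8% to 73.6% (single libraries of H3K4me1), 69.0% and 70.9% (S7P) and 45.4% (S5P). A value of 0 means that the bins were empty. Among the subunits, Nfkb2 encodes a precursor that is processed into a DNA-binding subunit, and its 3 starts differed in depletion. The upstream start had an NDR level of 26.9% in non-stimulated DCs, 0 in LPS-treated DCs, 0 in non-stimulated fibroblasts and 34.1% in TNF-α-stimulated fibroblasts, all below the median promoter of the same set. In the single libraries it had 18.2% and 55.0% in non-stimulated and 0 in both stimulated control cells, and 39.4% and 24.6% in non-stimulated and 81.6% and 0 in stimulated BAF-knockdown cells. The middle start, 958 bp farther on, had 41.7%, 0, 39.5% and 22.7% in the 4 pooled sets, in the same order. The downstream start had 134%, 89.6%, 120% and 95.8%, so that its upstream DNA was as occupied as its flank. This start lies only 235 bp from the middle one, the 150 bp ahead of it lie within the first 235 bp of the middle transcript, and the 3 windows share bins, so these rows are not independent.

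Rela, which encodes the subunit with the main transactivating role in most cells, had NDR levels of 51.7% and 0 in DCs (non-stimulated, then LPS) and 67.1% and 0 in fibroblasts (non-stimulated, then TNF-α). Both stimulated sets were thus empty here, whereas 4 stimulated single libraries had 100.3%, 83.2%, 71.0% and 0. Rel, which encodes the lymphoid and myeloid subunit c-Rel, was empty in both DC sets and in stimulated fibroblasts but had 239% in non-stimulated fibroblasts. Its coverage score is the lowest of the 13, and the single libraries ranged from 0 (in 3 of 8) to 230%. Relb, the partner of the Nfkb2 product in the alternative pathway, had 51.5% and 41.7% in DCs and 2.29% and 12.4% in fibroblasts. Relb was thus higher in both DC sets than in both fibroblast sets, but the 8 single fibroblast libraries ranged from 2.86% to 95.5%. Nfkb1, the other precursor subunit, had 92.4% and 65% in DCs and 112% and 127% in fibroblasts, above the median promoter in all 4 sets.

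Among the classical inhibitors, Nfkbib (IκBβ) was the most depleted of the 13 promoters. Its NDR level was 0 in non-stimulated DCs, in both fibroblast sets and in 7 of 8 single H3K4me1 libraries, the exceptions being LPS-treated DCs (77.4%) and BAF-knockdown non-stimulated replicate 1 (80.2%). It was also 0 in both S7P libraries and 2.82% in S5P. By comparison, between 7.22% and 26.2% of high-coverage promoters were empty ahead of the TSS in any 1 library. Another gene, Sirt2, starts on the opposite strand 229 bp upstream (at −229), so that the depleted DNA lies between a pair of divergent starts. Downstream of it the highest bin within 250 bp stood at 145, 145, 145 and 165 bp in the 4 pooled sets and at 155 bp in S5P.

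Nfkbie (IκBε) had NDR levels of 74.9% and 14.1% in DCs, and 17.8% and 0 in fibroblasts. It was the lower in the stimulated set each time. Nfkbia had 76.2% and 4.38% in DCs and 23.1% and 19.2% in fibroblasts. Its highest bin within 500 bp of the TSS was at 415, 365, 395 and 375 bp in the 4 pooled sets, farther downstream than the +1 nucleosome of Nfkbib. Nfkbiz and Bcl3 encode atypical IκBs, which act in the nucleus on promoters bound by NF-κB. The upstream Nfkbiz start had 109.6%, 149%, 137% and 0, and the downstream start 0, 0, 35.2% and 0. Bcl3 had 113% and 112% in DCs and 82.6% and 18% in fibroblasts, so that the DC sets were the higher ones. The plots of NDR ratios by library and of pooled profiles show these values.

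**Figure D1:**
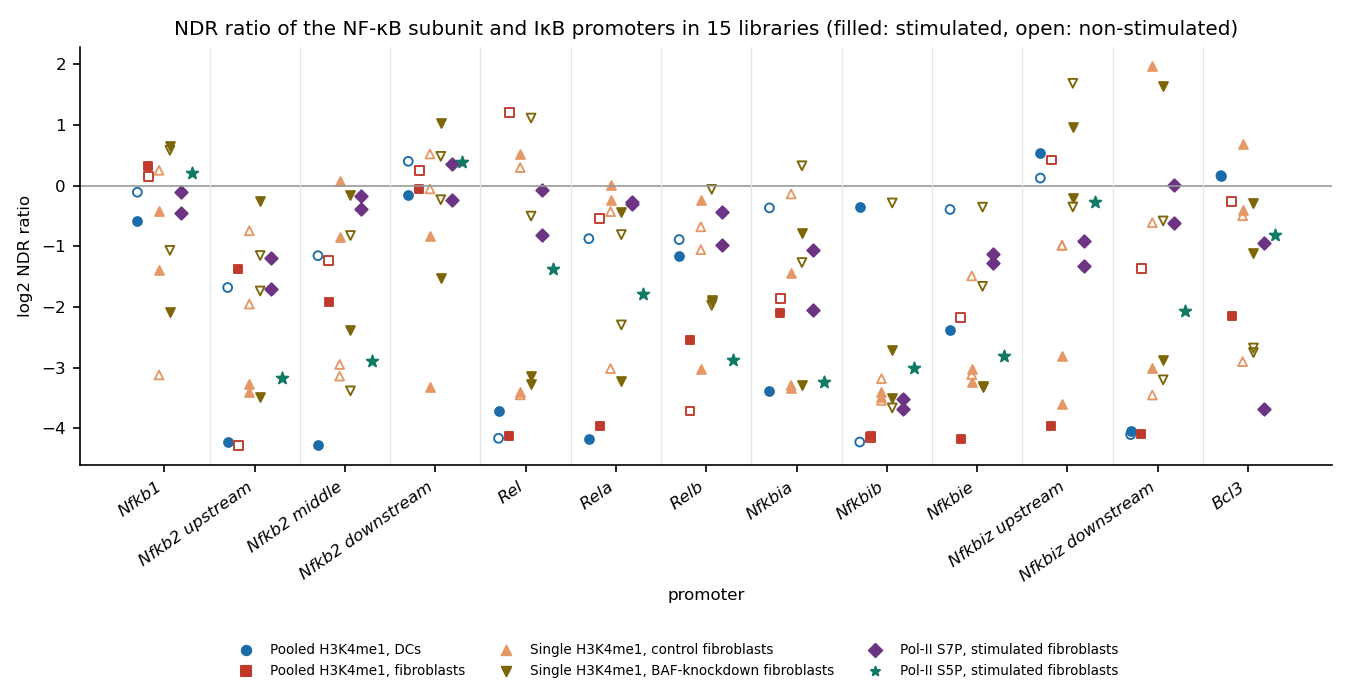
Log2 NDR ratio (y axis, occupancy from −150 to 0 bp over that from −1000 to −500 bp, 0.1 added to both) at the 13 promoters (x axis) in the 15 libraries. Each symbol is 1 library or pooled set, filled where cells were stimulated. Nfkbib lies low in all but 2 libraries, and single H3K4me1 libraries of 1 promoter often span more than 2 log2 units.

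**Figure D2:**
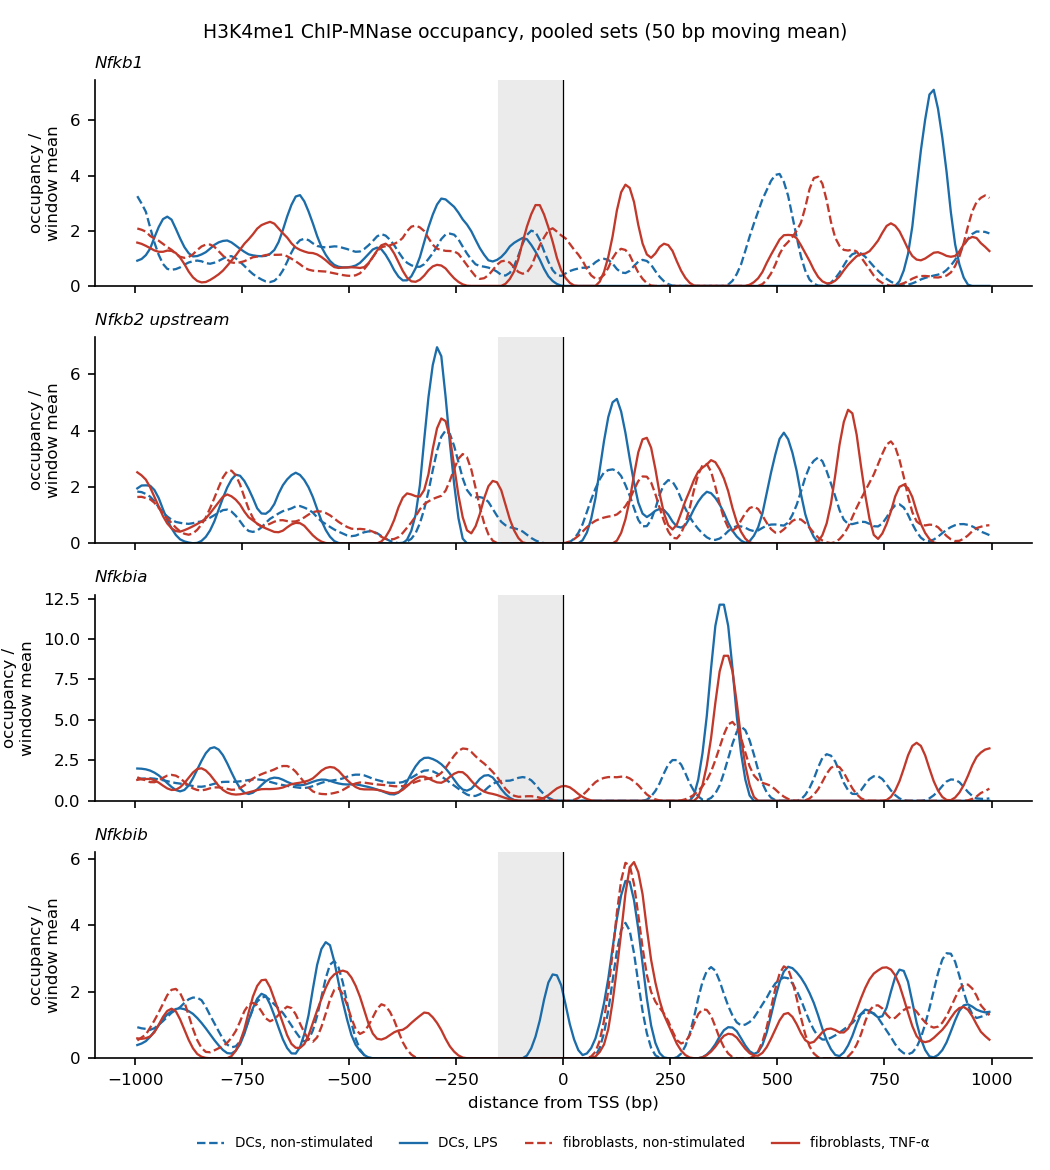
Occupancy divided by its mean over the window (y axis, 50 bp moving mean) against distance from the TSS (x axis, bp) at Nfkb1, Nfkb2 upstream, Nfkbia and Nfkbib in the 4 pooled H3K4me1 sets. The grey band marks −150 to 0 bp. It holds signal at Nfkb1 and is empty in 3 of 4 sets at Nfkbib.

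In order of the mean log2 NDR ratio over the 8 single H3K4me1 libraries, the promoters ran from Nfkbib (−2.97 ± 1.13, SD, n = 8, lower than all but 1.1% of high-coverage promoters) and Nfkbie (−2.43 ± 1.12, 4.98%) through Nfkb2 upstream (−2.00 ± 1.27, 12.9%), Nfkb2 middle (−1.70 ± 1.41), Nfkbia (−1.65 ± 1.48), Rel (−1.48 ± 2.01), Relb (−1.35 ± 1.02), Rela (−1.30 ± 1.32), Nfkbiz downstream (−1.26 ± 2.20) and Bcl3 (−1.24 ± 1.36) to Nfkb1 (−0.82 ± 1.35), Nfkbiz upstream (−0.78 ± 1.76) and Nfkb2 downstream (−0.49 ± 1.40). The median of high-coverage promoters was −0.75. These 8 libraries are of 4 different groups, and the SD includes differences between groups. No neighbours in this order differed by more than the smaller of their SDs, and only the ends stand apart.

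The patterning level, a sum over bins that grows as a profile comes closer to the mean profile of active promoters in the same cell type, gave a similar order at the top. Nfkbib had 11.6 ± 4.6 (SD, n = 8) and exceeded 98.6% of high-coverage promoters, and Nfkbie had 8.45 ± 2.53 and exceeded 91.9%, with positive levels in 8 of 8 libraries at both. Nfkb2 middle (5.62), Nfkb2 upstream (5.22), Nfkbia (4.17) and Relb (4.11) also lay above the median of 2.09, and the upstream Nfkbiz start had the lowest mean, −0.854. The NDR bins are part of both measures, so they are not independent.

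The highest bin from −400 to −150 bp kept its place at 2 of the 13 promoters. At Nfkb2 upstream the highest bin from −400 to −150 bp lay between −325 and −235 bp in all 15 libraries, a range of 90 bp, and at Bcl3 between −335 and −235 bp, a range of 100 bp. At 1.97% of high-coverage promoters this bin lay within 100 bp in all libraries, a limit equal to the range at Bcl3. Bcl3 had NDR levels of 113% and 112% in the DC sets, so that this bin did not border an NDR there. At the other 11 promoters it ranged over 150 bp or more or was missing from at least 1 library.

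At the κB matches of the upstream Nfkb2 start occupancy was 0 in all 4 pooled sets and in 3 of 8 single libraries, and the match of Nfkbia was empty in 3 of 4 and 6 of 8. The proximal match of Relb was empty in 2 of 4 and 4 of 8, its distal match in 2 of 4 and 6 of 8, and that of Nfkbie in 1 of 4 and 6 of 8. In S5P these matches had 0.00838 (Nfkb2 upstream, −40 bp), 0.0459 (Nfkbia), 0.0222 (Relb, −24 bp) and 0.0257 (Nfkbie) of the mean occupancy of their window. At the same distance from the TSS, 33.4%, 35.3%, 32.8% and 29.1% of high-coverage promoters had no more than that, so these κB matches lay in DNA about as empty as that of many other promoters. Each of these matches also carried signal in some single libraries. The proximal match of Relb had 4.18 times the window mean in non-stimulated BAF-knockdown replicate 2. The −40 bp match of Nfkb2 upstream had 1.91 times in stimulated BAF-knockdown replicate 1. The match of the downstream Nfkb2 start was empty in 2 of 4 pooled sets and 7 of 8 single libraries. The match of the middle Nfkb2 start had 4.04 times the window mean in S5P, above 97.0% of high-coverage promoters at this position. In non-stimulated fibroblasts it also exceeded its window mean, by a factor of 2.52, and it was empty in 1 of 8 single libraries. The overlapping matches of Rel were empty in 3 of 4 pooled sets and 5 of 8 single libraries but had 5.91 and 5.09 times the window mean in non-stimulated fibroblasts, and 0.791 and 0.764 in S5P. The match of Nfkbie had 2.16 times the window mean in non-stimulated DCs, and that of Nfkbiz upstream 2.20 times in non-stimulated fibroblasts. The Nfkbiz upstream match was empty in 2 of 4 pooled sets, in 6 of 8 single libraries and in S5P.

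Whether LPS changed promoter nucleosomes in DCs can be described from 1 pooled set against 1, without a test. NDR ratios differed by more than 1 log2 unit at 5 of the 8 high-coverage promoters, 1 higher and 4 lower with LPS, compared with 35.9% of high-coverage promoters (14.8% higher, 21% lower). The lower ones were Rela (by a log2 difference of −3.30), Nfkb2 middle (−3.12), Nfkb2 upstream (−2.55) and Nfkbie (−1.99), and Nfkbib was higher (3.88). Nfkbia, which was not of high coverage, was also lower (−3.02). The median over the 8 was −1.27. Bins with signal also fell in number, from 92.0% to 50% at Nfkb2 upstream and from 76.0% to 48.5% at Nfkbia, more than at the median promoter (87.0% to 81.5%), and the part of this in the differences was not tested.

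In the pooled fibroblast sets 5 of the 8 high-coverage promoters differed by more than 1 between TNF-α and no stimulation, 1 higher and 4 lower, compared with 39.2% (15.8% higher, 23.4% lower). The lower ones were Nfkbiz upstream (−4.39), Rela (−3.43), Nfkbie (−2.00) and Bcl3 (−1.88), and Nfkb2 upstream was higher (2.91). Rel (−5.33), Nfkbiz downstream (−2.72) and Relb (1.18) also differed by more than 1 at low coverage. In these pooled sets Rela and Nfkbie were thus lower in the stimulated set of either cell type. Nfkb2 upstream was lower in one and higher in the other. In the single fibroblast libraries tested below, Rela (0.67 ± 0.91, SE), Nfkb2 upstream (−1.21 ± 0.78) and Bcl3 (1.93 ± 0.59) had the opposite sign. Nfkbie (−1.56 ± 0.55) and Nfkbiz upstream (−1.25 ± 0.66) had the same sign as in the pooled fibroblast sets. A log2 difference of 1 is about the size of the median residual SD among replicates of the single libraries, 1.05.

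Between the cell types, 2 of 8 high-coverage promoters differed by more than 1 before stimulation, 2 higher and 0 lower in DCs (39.2% of all, 22% higher and 17.2% lower), namely Nfkb2 upstream (−1.68 in DCs, −4.29 in fibroblasts) and Nfkbie (−0.39 and −2.17). At the starts that were used differently, NDR ratios before stimulation did not run in one direction with expression. Nfkb2 upstream, the highest start of its gene in DCs, was the less depleted there, and Nfkbiz downstream, likewise the higher start in DCs, was the more depleted there (−4.10 and −1.37). After stimulation 6 of 8 differed by more than 1 (42.1% of all), with 4 higher and 2 lower in DCs (24.2% and 17.9% of all). These were Nfkbiz upstream (0.54 in DCs, −3.96 in fibroblasts), Nfkbib (−0.35, −4.12), Bcl3 (0.16, −2.14), Nfkbie (−2.39, −4.17), Nfkb2 upstream (−4.22, −1.38) and Nfkb2 middle (−4.27, −1.91). The comparisons before and after stimulation and those of stimulation itself use the same 4 sets.

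The 8 single libraries allow a test of TNF-α across control and BAF-knockdown fibroblasts (4 against 4, limma over 13559 promoters, two-sided, Benjamini-Hochberg adjustment). At an adjusted p below 0.05 no promoter was called (percent called 0), and so none of the 8, whereas 5.75% of high-coverage promoters had an unadjusted p below 0.05. Of the 8 promoters 2 did, Nfkbie and Bcl3. Nfkbie was empty in all 4 stimulated libraries and had 28.3%, 1.51%, 23.6% and 75.5% in the non-stimulated ones (control replicates 1 and 2, then BAF knockdown). Every stimulated library was thus at or below every non-stimulated one, the nearest being control replicate 2. With 0.1 added to either mean, these became a log2 difference of −1.56 ± 0.55 (SE, unadjusted p = 0.0275, adjusted p = 0.79 by limma), with ranges that overlap. The pooled sets had the same direction.

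Bcl3 had 67.3%, 0, 4.59% and 4.44% in the non-stimulated libraries and 73.1%, 169%, 80.6% and 40.3% in the stimulated ones. Only control replicate 1 of the non-stimulated libraries reached the stimulated range. The log2 difference was 1.93 ± 0.59 (SE, unadjusted p = 0.0150, adjusted p = 0.79 by limma), opposite in sign to the pooled sets (−1.88). Its patterning level was 7.27, 4.66, 6.18 and 5.27 without TNF-α and 3.49, −3.66, −1.29 and −0.854 with it, without overlap, a difference of −6.42 ± 1.98 (SE, unadjusted p = 0.0143, adjusted p = 0.87 by limma). Bcl3 was the only 1 of the 13 whose patterning levels did not overlap, and 2.64% of high-coverage promoters did not, while 5.68% had an unadjusted p below 0.05. Patterning differences of 5, 10 and 20 were called in 0%, 8.96% and 53.0% of cases in data simulated with normal noise. For NDR ratios none of the 13 was free of overlap (2.88% of high-coverage promoters).

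The other differences with TNF-α were within 2 SE of 0 or close to that. They were 1.75 ± 0.81 at Nfkb2 middle, −1.34 ± 0.84 at Nfkb2 downstream, −1.25 ± 0.66 at Nfkbiz upstream, −1.21 ± 0.78 at Nfkb2 upstream, 0.67 ± 0.91 at Rela and −0.61 ± 0.75 at Nfkbib (SE). At Nfkb2 the 3 starts thus had differences of both signs. A fit of every promoter gave −1.69 ± 1.37 at Rel, −1.12 ± 0.99 at Nfkbia, −0.83 ± 0.71 at Relb, 1.40 ± 1.58 at Nfkbiz downstream and 0.03 ± 0.99 at Nfkb1. In data simulated for this design with normal noise, 13.4% of differences of 2 log2 units, 43.3% of 4 and 90.9% of 8 were called. Most simulated differences of 2 and 4 log2 units thus went uncalled. The simulated ratios had no floor, whereas an empty window sets one in the measured ratios. Measured ratios of the 13 promoters in the 8 libraries lay between −3.66 and 1.97, a narrower span than 8 log2 units. These shares therefore need not hold for the measured ratios. On leaving out 1 library the difference ranged from −2.25 to −0.26 at Nfkbiz upstream, −2.14 to −0.28 at Nfkb2 upstream and −2.04 to −0.65 at Nfkb2 downstream, and with the window from −100 to 50 bp it was 0.92 at Nfkbiz upstream.

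For BAF knockdown the same libraries gave 0 calls at an adjusted p below 0.05, with 5.25% at an unadjusted p below 0.05. Of the 8 high-coverage promoters 1, Nfkbiz upstream, was below this. It had 45.3%, 44.6%, 0 and 6.22% in control cells (non-stimulated 1 and 2, stimulated 1 and 2) and 353%, 74.3%, 85.9% and 204% in knockdown cells. All 4 knockdown libraries were above all 4 control libraries. This annotated start lies 213 bp from the nearest start of the gene in the GENCODE annotation, the farthest of the promoters studied (next 67 bp, Nfkb2 downstream). The part of this in the values was not tested. A lack of overlap in either direction was found at 2.68% of high-coverage promoters. The log2 difference was 2.62 ± 0.66 (SE, unadjusted p = 0.00592, adjusted p = 0.80 by limma). The other 7 had differences between −0.93 (Bcl3) and 0.87 (Nfkbib), each within 2 SE of 0. For the patterning level no promoter was called either (5.84% at an unadjusted p below 0.05), and none of the 13 was without overlap (2.97%).

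Whether TNF-α acted differently in knockdown cells was tested as an interaction, in which no promoter was called for NDR ratios (6.11% at an unadjusted p below 0.05) or patterning levels (5.65%), and none of the 8 promoters had an unadjusted p below 0.05 for either. In data simulated with normal noise and without a floor, the interaction was called for 0%, 0% and 16.7% of NDR differences of 2, 4 and 8 log2 units. It was called for 0% of the patterning differences tried, so that this test could miss large effects. The plot of differences shows the estimates with their SE. Replicate 1 of the knockdown libraries carries the tag 04U and the other 6 single libraries 12U, which the labels do not explain. Within the knockdown this tag cannot be told apart from replicate number. Replicate 2 of the knockdown libraries shares its tag with the control libraries. At Nfkbiz upstream these knockdown libraries (74.3% non-stimulated, 204% stimulated) were above all control libraries. Without replicate 1 of each group the difference at Nfkbiz upstream was 2.21 (unadjusted p = 0.168 by limma).

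**Figure D3:**
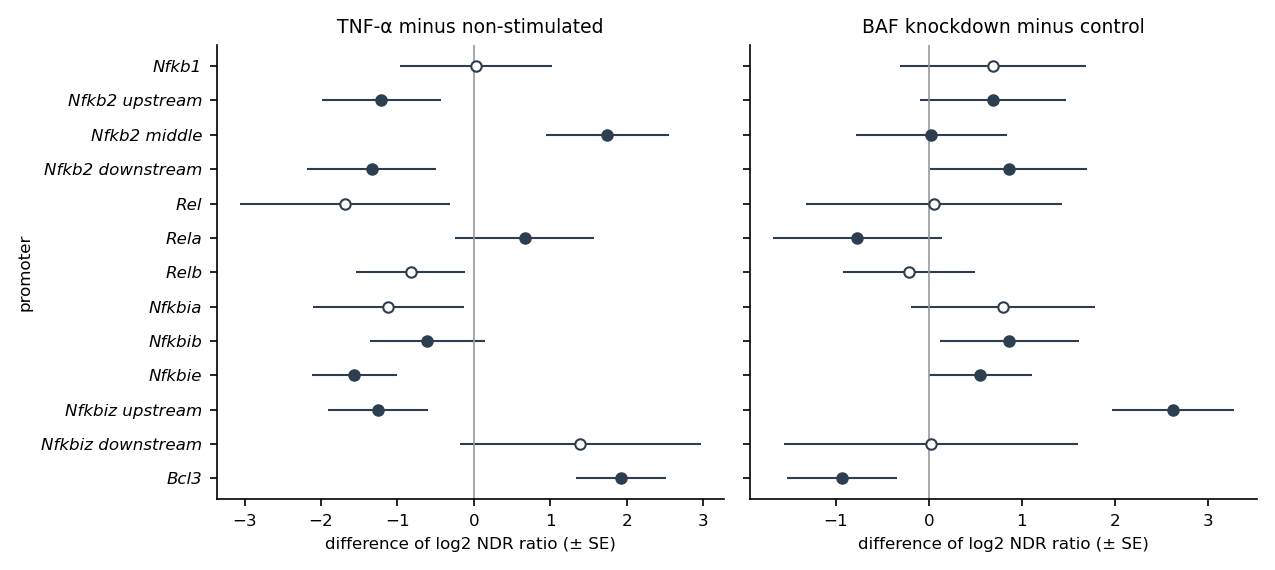
Differences of log2 NDR ratio (x axis, point ± SE from limma) at the 13 promoters (y axis) for TNF-α (left) and BAF knockdown (right), over 4 against 4 single H3K4me1 libraries. Filled points are high-coverage promoters, open points come from a fit of every promoter. Nfkbiz upstream lies at 2.62 with knockdown, and Bcl3 at 1.93 and Nfkbie at −1.56 with TNF-α.

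S7P is a mark of transcribing, elongating polymerase and S5P of polymerase at initiation and soon after, so that these libraries sample chromatin of alleles on which polymerase is present. They were sequenced from both fragment ends and the H3K4me1 libraries from 1, so that antibody and sequencing cannot be told apart. At most of the promoters studied signal filled more of the window in pol-II than in stimulated single H3K4me1 libraries. At the median of all promoters S7P replicate 1 had signal in 68.5% of bins, replicate 2 in 79.5% and S5P in 82.0%. The stimulated single H3K4me1 libraries had 64.5% to 75.5% there. At 10 of 13 promoters both S7P libraries had more bins with signal than all 4 stimulated single H3K4me1 libraries, compared with 26.8% of all promoters and 42.6% of those expressed at least as highly in fibroblasts as the lowest of the 13. The exceptions were Nfkbib, Nfkbie and Bcl3. S5P exceeded the 4 libraries at 13 of 13, compared with 48.2% and 73.7%, and the part of possible pooling in this was not tested.

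At Nfkbia the 4 H3K4me1 libraries (control replicates 1 and 2, then BAF knockdown) had signal in 69.0%, 50%, 55.5% and 59.0% of bins, S7P in 97.0% and 99.5% and S5P in 95%. The downstream Nfkbiz start, of little expression before stimulation in fibroblasts, had 49.0%, 39.5%, 57.5% and 47.5% in H3K4me1, 96.0% and 100% in S7P and 100% in S5P. At both, all 3 pol-II libraries were above all H3K4me1 libraries. By bins with signal in S7P replicate 1, Nfkb2 middle exceeded 97.6% of all promoters, Rela 97.1%, and Nfkb2 upstream and Nfkbia 96.4% each, whereas Bcl3 exceeded 17.3%. Bcl3 was also the promoter whose S7P libraries differed most, at 44.5% and 79.0%. The plot of bins with signal shows all 13.

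**Figure D4:**
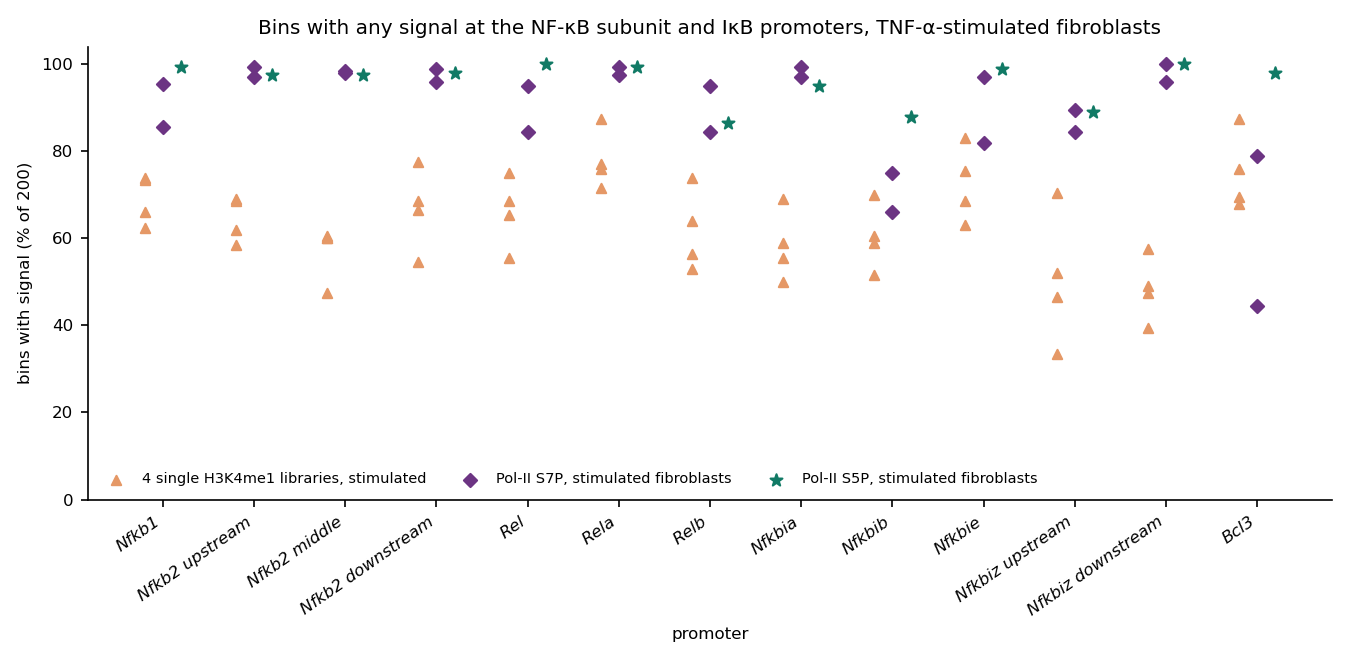
Percent of the 200 bins with any signal (y axis) at the 13 promoters (x axis) in TNF-α-stimulated fibroblasts. Triangles are the 4 single H3K4me1 libraries, diamonds the 2 pol-II S7P libraries and stars the pol-II S5P library. Stars lie above the triangles at 13 of 13 promoters and both diamonds at 10 of 13.

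NDR ratios in S7P were compared with the 2 stimulated control H3K4me1 libraries by limma. No promoter was called (percent called 0, 9.12% at an unadjusted p below 0.05), and of the 8 promoters 2 had an unadjusted p below 0.05. Nfkbie had NDR levels of 38.3% and 36% in S7P against 0 in both control libraries, a log2 difference of 1.93 ± 0.69 (SE, unadjusted p = 0.0274, adjusted p = 0.46 by limma). Nfkbiz upstream had 34.5% and 48.6% against 0 and 6.22%, a difference of 2.09 ± 0.78 (SE, unadjusted p = 0.0328, adjusted p = 0.49 by limma). At both, the S7P libraries were above the control libraries. In data simulated for this comparison 2.99%, 26.9% and 72.7% of differences of 2, 4 and 8 log2 units were called. The simulated ratios again had no floor, so that these shares need not hold for the measured ones.

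In S5P the NDR was deeper than in both S7P libraries at 8 of 13 promoters, compared with 45.3% of all promoters. These were Nfkb2 upstream and middle, Rel, Rela, Relb, Nfkbia, Nfkbie and Nfkbiz downstream. Among the 8 of high coverage it was 4, against 47.3%, so that these promoters were near the background. Nfkb2 upstream had an NDR level of 1.87% in S5P and 21.9% and 37.6% in S7P, Nfkbia 1.51% against 42.1% and 16.8%, and Relb 5.32% against 71.2% and 46.0%. In a limma fit chosen after the data were seen, no promoter was called between S5P and S7P (8.69% at an unadjusted p below 0.05), and the largest difference among the 8 was −2.61 ± 1.26 (SE, adjusted p = 0.66 by limma) at Nfkb2 middle. That fit has 1 S5P library, which was assumed to vary like the others. Against the pooled stimulated H3K4me1 set, S5P differed by more than 1 at 6 of 8 high-coverage promoters, 5 higher and 1 lower, compared with 48.5% of all (29.1% higher, 19.4% lower). Mean occupancy of high-coverage promoters was 1.62 in that pooled set and 0.97 in S5P, so that the added 0.1 weighs more in S5P. Nfkbib, for example, counted as higher in S5P with NDR levels of 0 (pooled) and 2.82% (S5P). The part of this scale in the differences was not tested.

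The highest bin from 0 to 250 bp in S5P, a stand-in for the +1 nucleosome, had a median position of 155 bp at the 13 promoters. Its quartiles were 135 to 155 bp and its range 135 to 245 bp. At 6415 active high-coverage promoters the median was 145 bp (quartiles 115 to 175 bp). Within 500 bp the highest S5P bin lay farther out at Nfkb2 middle (375 bp), Rel (365 bp), Nfkbiz upstream (295 bp) and Nfkbia (265 bp). At these the stand-in need not mark the +1 nucleosome. In the S5P profiles a peak at the +1 position can be seen at Nfkb2 upstream, Relb and Nfkbib, with the highest bin within 500 bp at 155 bp. In the S7P libraries this bin lay at 165 bp in both replicates at Nfkb2 upstream. It lay at 65 and 305 bp at Relb and at 185 and 325 bp at Nfkbib (replicates 1 and 2).

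**Figure D5:**
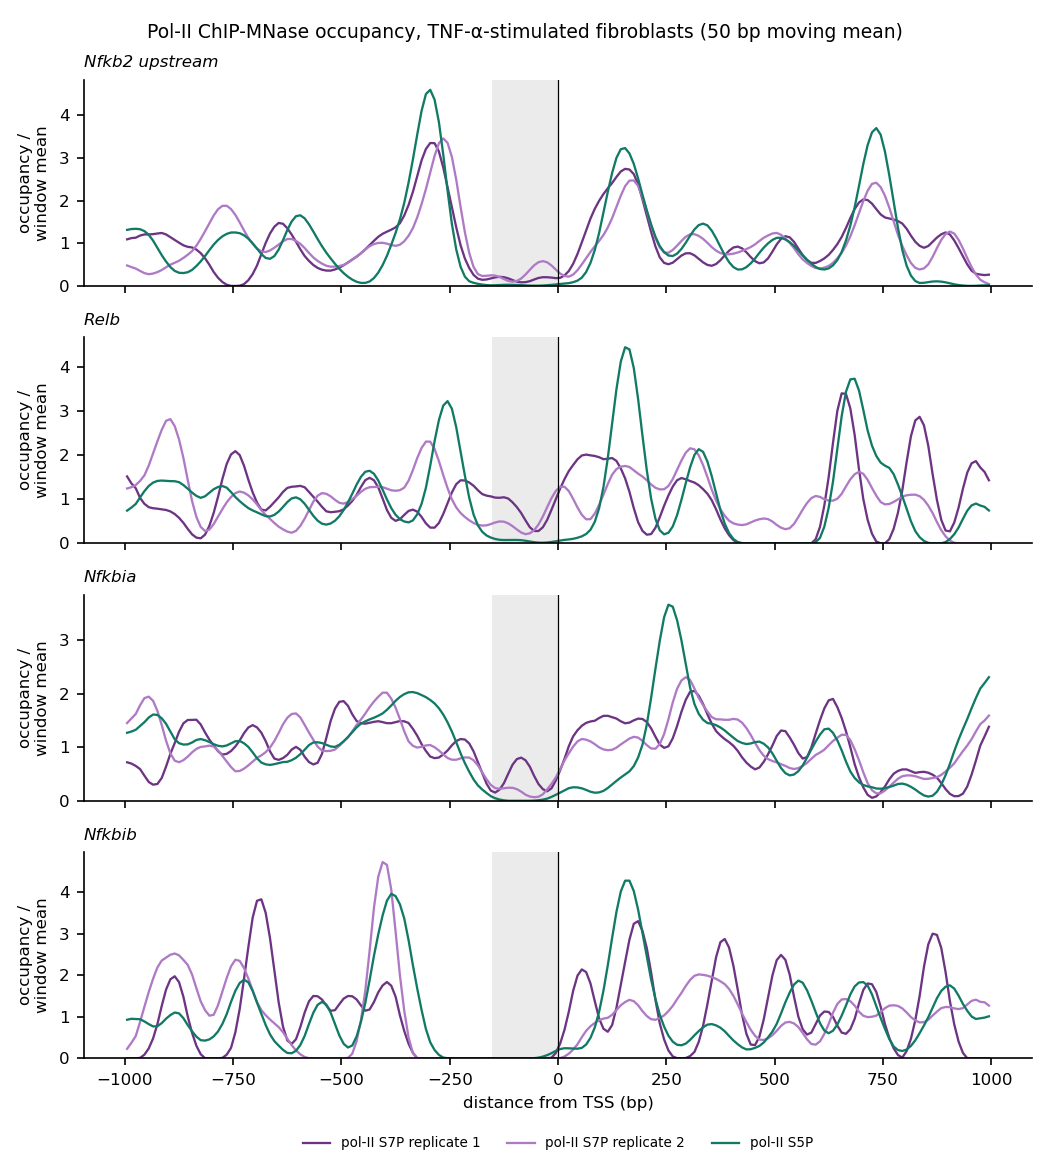
Occupancy divided by its mean over the window (y axis, 50 bp moving mean) against distance from the TSS (x axis, bp) at Nfkb2 upstream, Relb, Nfkbia and Nfkbib in the 2 pol-II S7P libraries and the pol-II S5P library from TNF-α-stimulated fibroblasts. The grey band marks −150 to 0 bp. It is nearly empty in S5P at all 4, with NDR levels of 1.51% to 5.32%.

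Other genes of the pathway were taken as 2 lists, 20 genes of IKK and its upstream signalling with 24 starts (15 of high coverage) and 12 other regulators of NF-κB with 15 starts (14 of high coverage). None of their promoters was called in any fit, as none was among all 13559. At an unadjusted p below 0.05 there were 2 and 0 with TNF-α and 2 and 2 with BAF knockdown, next to 2 and 1 of the 8 promoters studied. The median log2 difference with TNF-α was −0.25 for IKK and upstream signalling and 0.15 for the other regulators, next to −0.91 for the 8 promoters studied and −0.08 for all. With BAF knockdown these medians were −0.18, −0.35, 0.62 and 0.00060.

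The median of the mean log2 NDR ratio over the 8 single libraries was −1.69 for the high-coverage starts of the IKK list, −1.07 for the other regulators, −1.50 for the 8 promoters studied and −0.75 for all. Among high-coverage starts in non-stimulated fibroblasts, NDR levels ran from 0 to 233% in the IKK list and from 0 to 134% among the other regulators. Irak4, a kinase downstream of LPS and interleukin receptors, was at an NDR level of 0, and Map3k7, which encodes the IKK-activating kinase TAK1, at 233%. Between them, 2 starts of Ikbkg, the regulatory subunit of IKK, had 0 and 18.9%, a start of the kinase gene Irak1 had 81.7%, and Traf2, an adaptor of TNF receptors, had 105%. Tnfaip3, which encodes the ubiquitin-editing inhibitor A20, had 0 at one start and 96.3% at another. Tnip2, an A20-binding protein, had 6.33%, and the IκB-related Nfkbid 21.5%. The highest high-coverage starts of the regulators were those of Pdlim2, which encodes a ubiquitin ligase for RelA, at 98.1% and 134%.

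Profiles most like those of Nfkb1, Rela and Nfkbia were sought over the 800 bins of the 4 pooled sets by Pearson's correlation. It reached 0.35 for Nfkb1 with 4430402I18Rik and 0.34 with Anxa2, 0.48 for Rela with Tfpt and 0.47 with Ndufa2, and 0.49 for Nfkbia with 4933439C10Rik and 0.48 with Cpsf7. These are correlations across bins that share libraries and neighbouring positions, chosen as the highest of all promoters, and are given as a description.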

How the data were processed

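Occupancies of 15 libraries were used as deposited. Per the paper's methods the authors aligned reads with bowtie to mm9 (the submitters' processing notes name Bowtie2 and bedtools), counted fragments in 10 bp bins and divided by the surrounding 1 kb, and per the labels 4 sets pool 2 replicates each, so the deposited signal is relative to the local total and kilobase-scale changes are masked. The authors' annotation also gives a coverage score and FPKM before stimulation, from public RNA-seq, for each promoter. It further holds log2 differences of array expression upon stimulation, which were not used. Empty bins were read as 0. RefSeq identifiers matched a symbol for 24920 promoters (96.3%). NDR ratios used a pseudocount of 0.1. The 8 single libraries were fitted with limma 3.58.1 (R 4.3.3) with stimulation and knockdown as additive terms. A separate fit added their interaction. Both were run over 13559 promoters, at an adjusted p of 0.05, after tests on simulated data. Pooled sets are 1 against 1 and were described by log2 differences past 1. Replicate numbers did not pair libraries (correlations of deviations −0.00771 to 0.0197). The genes and lists were chosen with earlier results of these data known. All 13 promoters are named, of each list, as no gene passed a test, the 3 lowest and 3 highest NDR ratios of high-coverage starts in non-stimulated fibroblasts, and for 3 genes the 2 most similar high-coverage profiles of genes over 5 kb away. The alternatives were another pseudocount, window, flank and coverage filter, limma's trend, a replicate block and leaving out libraries. Sequences came from mm9, κB, GC and TATA letters being sought on both strands of the 250 bp ahead of each TSS.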

Additional observations from a re-analysis of the deposited data

How the results depend on the processing

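Of 288 values of the 8 high-coverage promoters under alternatives, none passed the threshold and 270 kept their direction. With the window from −100 to 50 bp the sign of the log2 difference changed with TNF-α at Nfkbiz upstream (0.92) and Nfkbib (0.14) and with BAF knockdown at Nfkbie (−0.30), Nfkb2 middle (−0.25) and Bcl3 (0.0091), and with a pseudocount of 0.5 at Nfkb2 middle with knockdown (−0.026). Leaving out a library gave −0.039 to 1.41 at Rela and −1.54 to 0.33 at Nfkbib with TNF-α, and with knockdown −0.23 to 1.34 at Nfkbie, −0.60 to 1.98 at Nfkb2 upstream, −0.98 to 1.04 at Nfkb2 middle and −0.36 to 2.09 at Nfkb2 downstream, while Bcl3 (1.28 to 2.58) and Nfkbie (−2.04 to −1.15) with TNF-α and Nfkbiz upstream with knockdown (2.19 to 3.22) kept their sign. Calls among all promoters with TNF-α, 0 as reported, were 3 without the coverage filter, 17 with a pseudocount of 0.02 and 0 to 2 on leaving out a library (2 without stimulated control replicate 1). For S7P they were 46 without the filter, 1 with limma's trend and 79 with a pseudocount of 0.02, and for S5P against S7P 411, 27 and 118. Promoters past a log2 difference of 1, without the filter and with a pseudocount of 0.5, were 11084 and 2864 for LPS in DCs (4864 as reported), 10565 and 3199 for TNF-α (5310), 11296 and 3114 between cell types before (5321) and 11974 and 3558 after stimulation (5704), and 13706 and 3488 for S5P (6574). The cause of these changes was not tested. With the replicate number as a block there were 0 calls, and it changed no other call. At Nfkbie and Bcl3 with TNF-α the unadjusted p with the block was 0.0428 and 0.0204, and at Nfkbiz upstream with knockdown 0.0117 (limma). The interaction without a replicate number could not be fitted, since no residual degrees of freedom remain. Depth is unknown, and empty windows at single promoters limit what these libraries can show.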
